A study of Mus musculus with 11 samples.

Results

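The comparison described here set 3 libraries from mice lacking neurofascin in Purkinje cells (NFKO) against 3 control libraries, out of 11 libraries in the series. All genes with at least 10 counts in total over the 11 libraries were taken, which gave 17557 of the 22609 genes listed. Polyadenylated RNA of the labelled tissue, cerebellar hemisphere of untreated littermates, was sequenced in bulk. NFKO mice carried Pcp2-Cre and NfascFx/Fx, and the study's methods give the controls as floxed without Cre, with NfascFx/Fx and AnkGFx/Fx named as the control genotype, whereas another passage of the study writes the control with Pcp2-Cre. The sample labels say only Control. If the controls carried floxed AnkG and no Cre, the groups differed in Cre and in the AnkG allele as well as in recombined Nfasc, and these cannot be told apart. Age was given as postnatal day 30 in one label and as day 32 in another, and strain as C57BL/6J in one and as a mixed C57BL/6J and 129 background in another. Mixed sex and a single batch were stated for all libraries. The Pcp2 promoter drives Cre in Purkinje cells, so other cells of the tissue would keep an intact Nfasc gene.

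Neurofascin 186 (NF186) is the neuronal isoform of the adhesion molecule encoded by Nfasc. It sits in the membrane of the axon initial segment, where action potentials start, and binds ankyrin G (AnkG, encoded by Ank3), which anchors voltage-gated sodium channels to a spectrin lattice. In Purkinje cells this segment also receives the basket cell endings called the pinceau.

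Libraries held 38890851 to 48540837 counts in control and 50126172 to 53758610 in NFKO. Expression is given throughout as CPM (TMM-scaled read counts relative to library size), on which 3 counts amounted to 0.0557 to 0.078 CPM, counting error only. The tissue label was checked against markers. Summed CPM of 11 granule cell genes was 786, 177 and 137 in control replicates 1, 2 and 3 and 665, 193 and 154 in the NFKO replicates. Hox genes of caudal segments, which the cerebellum normally lacks, summed to 532, 395 and 615 CPM in the controls and 582, 496 and 550 CPM in NFKO, more than the granule cell genes in 4 of the 6 libraries. Replicate 1 of each group stood apart from the rest in Purkinje cell genes too, with 1920 CPM in the controls and 2010 CPM in NFKO against 780 to 923 CPM in the other 4 libraries. The granule and Purkinje cell sums thus varied more within each group than between the groups. Motor neuron genes summed to 402, 237 and 427 CPM in the controls and 540, 274 and 354 CPM in NFKO. In bulk RNA such as this, fewer cells of a type cannot be told apart from less RNA per cell or from a different makeup of the dissected tissue. The origin of the tissue in each library was not tested.

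Sex differed between the groups as well. Xist, transcribed from the inactive X chromosome of females, was at 464, 598 and 0.428 CPM in the controls and 0.344, 0.655 and 1.39 CPM in NFKO. Ddx3y, a Y-linked gene, was at 7.20, 0.342 and 101 CPM in the controls and 94.6, 89.6 and 93.6 CPM in NFKO. Control replicate 1 thus held RNA of both kinds, and only control replicate 3 resembled the NFKO libraries.

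The targeted gene did not separate the groups. Nfasc was at 718, 661 and 690 CPM in the controls and 701, 622 and 635 CPM in NFKO, with overlapping ranges and a log2 fold change of -0.08 (SE, the standard error, 0.09, adjusted p = 0.969, quasi-likelihood test of edgeR, Benjamini-Hochberg adjusted). Whole-gene counts cannot show loss in Purkinje cells alone where other cells express the gene, and the label of the NFKO libraries was not checked by these counts. Ank3 was at 360, 375 and 353 CPM in the controls and 407, 386 and 385 CPM in NFKO, with a log2 fold change of 0.11 (adjusted p = 0.897). Pcp2 was at 26.3, 1.43 and 0.167 CPM in the controls and 28.3, 2.14 and 0.0929 CPM in NFKO, so its range within each group exceeded any difference between them.

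Of the 17557 genes, 64 were called, meaning an adjusted p under 0.05 and a log2 fold change of 0.6 or more in size, which is 0.365% of the genes tested. The call was higher in NFKO for 35 genes (0.199%) and lower for 29 (0.165%). Each of the 64 had its 3 NFKO libraries entirely above or below the 3 controls, a pattern that 13.9% of all tested genes showed. At an unadjusted p under 0.05 there were 1351 genes (7.69%). Blocking on replicate number, within the 6 libraries, gave 248 calls (186 higher and 62 lower), 60 of them among the 64. With Xist as a covariate 31 genes were called, 27 of them among the 64. In the libraries with Xist under 50 CPM alone 19 genes were called, 11 of them among the 64, but this fit leaves control replicate 3 as the only control, which is assumed to vary like the other groups. Every one of the 64 kept its direction with the block and with Xist as a covariate. Ddit4l, Klrb1b, Olfr658 and Rps3a lost their call with the block on replicate number, at adjusted p = 0.056, 0.0538, 0.0614 and 0.0533. Alpk1, Cadps, Glo1, H2-Bl, Lyrm7, Rnps1, Tmem144 and Tpm3, 8 genes in all, were called in each of the 17 alternative fits that used this fold threshold.

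**Figure D1:**
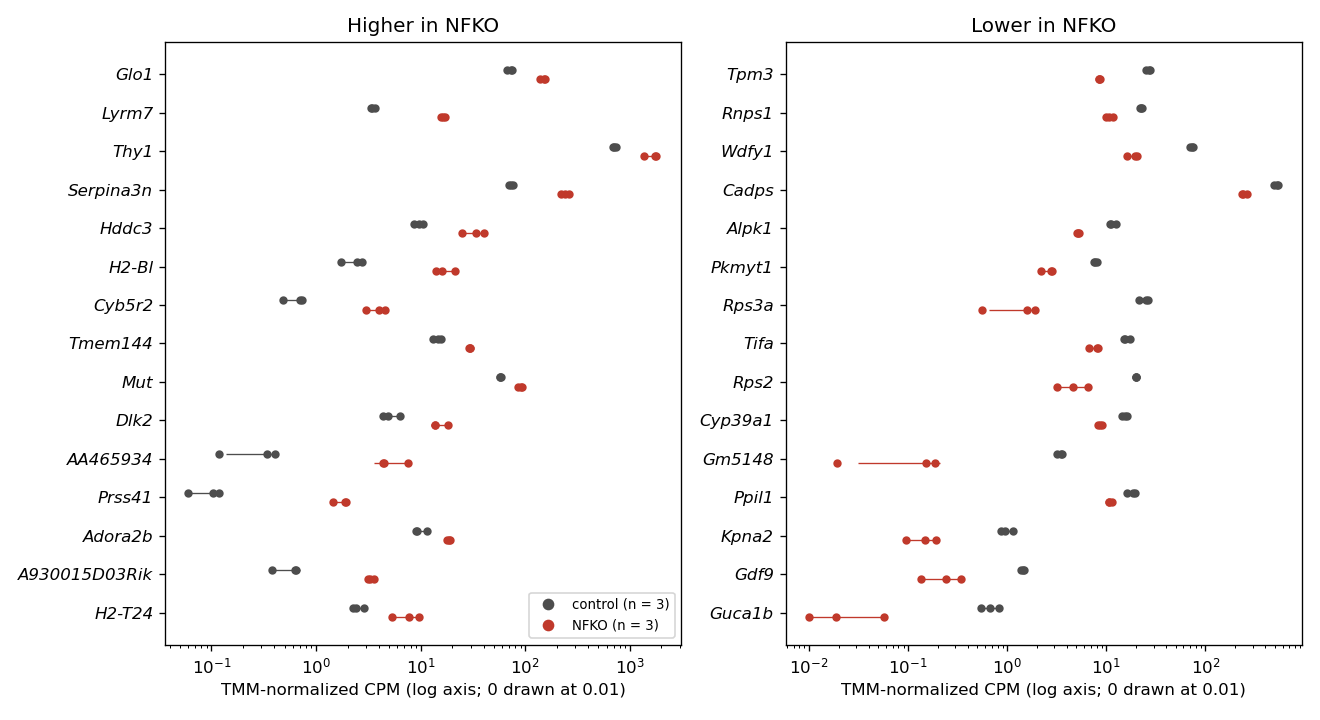
TMM-normalized CPM on a log axis in each library of control (grey) and NFKO (red) for the 15 genes called higher and the 15 called lower with the smallest p-values. Points are libraries, horizontal lines span the mean ± SD, and no grey point overlaps the red points of its gene.

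Of the called genes, 5 with products at the cell membrane or in secretion are given first, a grouping made for reading and not tested. Genes given here and below by product include some that lie in the same stretch of chromosome 17, as listed further on. Thy1, a surface glycoprotein abundant on projection neurons, was at 703, 689 and 730 CPM in the controls and 1726, 1371 and 1787 CPM in NFKO. The groups did not overlap, with a log2 fold change of 1.20 (SE 0.09, adjusted p = 7.47e-05). Cadps, which primes dense-core vesicles for release, was at 529, 494 and 542 CPM in the controls and 262, 234 and 241 CPM in NFKO, a log2 fold change of -1.09 (SE 0.09, adjusted p = 0.000131). Both genes stood at the NFKO level in the other mutants: Thy1 at 1901 and 1749 CPM in AnkGKO and at 1685, 1783 and 1743 CPM in DKO, and Cadps at 244 and 270 CPM in AnkGKO and 292, 232 and 286 CPM in DKO. Adora2b, an adenosine receptor, rose from 11.5, 9.20 and 9.0 CPM to 19.0, 18.03 and 18.6 CPM (log2 fold change 0.91, adjusted p = 0.00227). Adam11, a catalytically inactive member of the ADAM family found at the pinceau, rose from 183, 156 and 133 CPM to 292, 293 and 291 CPM (log2 fold change 0.89, adjusted p = 0.0224). Dlk2, a membrane protein related to the Notch ligands, was at 4.39, 6.34 and 4.83 CPM in the controls and 13.7, 18.4 and 13.6 CPM in NFKO (log2 fold change 1.55, adjusted p = 0.00113).

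Called genes of the Serpina3 and histocompatibility families are given next. Serpina3n, a secreted serine protease inhibitor made by reactive astrocytes, was at 73.0, 75.7 and 70.4 CPM in the controls and 237, 217 and 264 CPM in NFKO. The groups were far apart, with a log2 fold change of 1.71 (SE 0.13, adjusted p = 0.000137). Its neighbour Serpina3f, a paralog in the same cluster on chromosome 12, was at 0.338, 0.0403 and 0.190 CPM in the controls and 8.30, 7.43 and 8.79 CPM in NFKO (log2 fold change 5.48, SE 0.63, adjusted p = 0.00492). Serpina3m, chosen after its values were seen, was at 0.442, 0.0604 and 0.238 CPM in the controls and 8.97, 8.22 and 8.38 CPM in NFKO, and missed the threshold (log2 fold change 5.15, adjusted p = 0.0558; 0.00277 with the block on replicate number). Between 3.30% and 10.4% of the distinct 50-base words of the transcripts of these 3 paralogs were shared with another gene, so their counts are not fully separate. H2-Bl, a class I histocompatibility gene, was at 2.44, 1.73 and 2.74 CPM in the controls and 15.9, 14.0 and 21.2 CPM in NFKO (log2 fold change 2.89, SE 0.25, adjusted p = 0.000195). H2-T24, another class I gene, was at 2.26, 2.88 and 2.43 CPM in the controls and 7.77, 9.55 and 5.31 CPM in NFKO (log2 fold change 1.58, adjusted p = 0.00403). Of the transcript words of H2-T24 9.66% were shared with other genes, and H2-Bl had no match in the annotation, so its sharing is not known.

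Some called genes with known roles in innate immunity were higher and others lower. Bst2, the interferon-induced restriction factor tetherin, was at 2.34, 2.56 and 2.29 CPM in the controls and 4.90, 6.01 and 3.94 CPM in NFKO (log2 fold change 1.05, SE 0.19, adjusted p = 0.0426). Aim2, a sensor of cytosolic DNA, rose from 1.24 to 1.67 CPM in the control libraries to 2.68 to 3.59 CPM in NFKO (log2 fold change 1.06, adjusted p = 0.026). Ube2l6, the enzyme that conjugates the ubiquitin-like ISG15, rose from 3.98, 5.38 and 4.55 CPM to 8.91, 9.86 and 9.03 CPM (log2 fold change 1.00, adjusted p = 0.0183). Alpk1, a kinase that senses bacterial sugars, fell instead, from 10.996, 11.2 and 12.5 CPM to 5.05, 5.26 and 5.20 CPM (log2 fold change -1.16, SE 0.10, adjusted p = 0.000137). Tifa, its downstream adaptor, fell from 14.9, 15.3 and 17.2 CPM to 8.13, 6.72 and 8.23 CPM (log2 fold change -1.04, adjusted p = 0.000525). Alpk1 and Tifa are neighbours, with starts 0.119 Mb apart on chromosome 3. Nlrp1a, Fpr2 and Klrb1b, all of innate immune cells, were called higher at NFKO means of 0.998, 0.804 and 0.292 CPM, and Epx, the eosinophil peroxidase, was called lower at a control mean of 0.676 CPM.

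Promoters were printed for 4 genes of the interferon and Serpina3 lists, to show where the letters of interferon-type motifs lay. Sequences are the RefSeq promoters of build GRCm38.p6, from 250 bases before to 50 after the start, and 12094 of the 17557 tested genes and 40 of the 64 called genes were matched by symbol. Serpina3f has 2 such promoters, and the one with the most motif matches was printed. Capitals mark GAAA, NN and GAAA in a row, N being any base, the core of the interferon-stimulated response element, or TTCNNNGAA, the gamma-activated site, on either strand; where they overlap, the capitals run together. Bst2 lies at chr8:71537423-71537722 on the minus strand, Ifit3, an interferon-induced gene chosen after its values were seen, at chr19:34583279-34583578 on the plus strand, Serpina3n at chr12:104406458-104406757 on the plus strand and Serpina3f at chr12:104214294-104214593 on the plus strand.
Bst2: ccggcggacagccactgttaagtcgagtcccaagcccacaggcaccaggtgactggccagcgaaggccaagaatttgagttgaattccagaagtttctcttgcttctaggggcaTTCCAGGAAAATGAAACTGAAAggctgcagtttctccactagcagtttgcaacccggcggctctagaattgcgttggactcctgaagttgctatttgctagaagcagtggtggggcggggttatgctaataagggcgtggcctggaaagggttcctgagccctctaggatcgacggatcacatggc
Ifit3: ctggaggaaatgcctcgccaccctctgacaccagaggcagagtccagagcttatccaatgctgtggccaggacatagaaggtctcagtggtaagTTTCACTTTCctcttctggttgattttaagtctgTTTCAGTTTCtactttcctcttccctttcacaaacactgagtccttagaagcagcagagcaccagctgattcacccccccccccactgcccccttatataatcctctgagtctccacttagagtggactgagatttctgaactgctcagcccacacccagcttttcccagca
Serpina3n: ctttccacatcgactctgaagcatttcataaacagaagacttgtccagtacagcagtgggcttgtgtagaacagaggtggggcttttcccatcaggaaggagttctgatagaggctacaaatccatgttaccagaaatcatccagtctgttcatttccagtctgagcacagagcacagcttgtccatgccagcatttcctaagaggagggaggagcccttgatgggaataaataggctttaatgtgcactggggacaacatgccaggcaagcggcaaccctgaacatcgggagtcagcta
Serpina3f: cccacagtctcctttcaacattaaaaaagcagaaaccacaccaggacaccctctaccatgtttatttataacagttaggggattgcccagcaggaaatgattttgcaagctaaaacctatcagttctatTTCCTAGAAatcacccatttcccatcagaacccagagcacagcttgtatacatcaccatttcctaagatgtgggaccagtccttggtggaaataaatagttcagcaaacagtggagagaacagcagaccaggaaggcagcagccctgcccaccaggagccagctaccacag
The first motif occurred in 3.44% of the 32851 promoters of this length and TTCNNNGAA in 8.30%. Counted by gene, in any of its promoters, they occurred in 3.62% and 8.52% of the 12094 tested genes, the share to set beside the gene counts that follow. Among the tested genes of the interferon list 17 of the 31 with a promoter held the first motif. Of the 40 called genes with a promoter 1, Bst2, held it, and 5 held TTCNNNGAA (Alpk1, Bst2, Fpr2, Serpina3f and Vmn1r90). These are letter matches and not sites of binding.

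Other called genes with known products are given singly. Glo1, glyoxalase 1, which clears methylglyoxal, was at 75.3, 67.6 and 73.3 CPM in the controls and 150.4, 137 and 155 CPM in NFKO (log2 fold change 1.03, SE 0.07, adjusted p = 1.98e-05). Lyrm7, an assembly factor of respiratory complex III, was at 3.67, 3.46 and 3.38 CPM in the controls and 16.99, 15.5 and 16.4 CPM in NFKO (log2 fold change 2.22, SE 0.14, adjusted p = 1.98e-05). Hddc3, a phosphohydrolase, was at 9.54, 10.5 and 8.64 CPM in the controls and 33.4, 24.7 and 39.9 CPM in NFKO (log2 fold change 1.77, adjusted p = 0.000184). In each of these the lowest NFKO library was above the highest control. Mut, the mitochondrial methylmalonyl-CoA mutase, rose from 57.3, 57.8 and 59.0 CPM to 93.1, 90.5 and 84.7 CPM (log2 fold change 0.62, adjusted p = 0.000428). Cyb5r2, a cytochrome b5 reductase, rose from 0.702, 0.483 and 0.738 CPM to 3.998, 3.02 and 4.59 CPM (log2 fold change 2.60, adjusted p = 0.000252). Tmem144, a transmembrane protein, rose from 14.6, 15.6 and 13.2 CPM to 29.6, 29.4 and 29.1 CPM (log2 fold change 1.02, adjusted p = 0.000377). Cyp39a1, an oxysterol hydroxylase, fell from 15.5, 14.5 and 16.2 CPM to 8.67, 9.01 and 8.32 CPM (log2 fold change -0.83, adjusted p = 0.000525). Apoa2, an apolipoprotein of high-density lipoprotein, was at 0, 0.0201 and 0 CPM in the controls and 0.325, 0.424 and 0.353 CPM in NFKO, so that no fold is given against a control of 1 count.

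The genes called lower included the following 7, of varied function. Tpm3, a tropomyosin, had the smallest p-value of all genes, at 25.1, 27.5 and 27.0 CPM in the controls and 8.59, 8.44 and 8.47 CPM in NFKO (log2 fold change -1.64, SE 0.09, adjusted p = 8.43e-06). Rnps1, a splicing activator, was at 22.6, 21.9 and 22.8 CPM in the controls and 11.6, 9.90 and 10.7 CPM in NFKO (log2 fold change -1.06, adjusted p = 7.47e-05). Wdfy1, an endosomal phosphoinositide-binding protein, fell from 69.5, 74.9 and 73.4 CPM to 19.6, 16.1 and 20.4 CPM (log2 fold change -1.96, adjusted p = 0.000131). The spread within each of these groups was small beside the distance between them. Ribosomal protein genes with many processed copies also fell: Rps3a from 21.2, 25.3 and 26.4 CPM to 1.91, 0.559 and 1.60 CPM (log2 fold change -4.16, adjusted p = 0.00036; 0.0533 with the block on replicate number) and Rps2 from 20.04, 19.8 and 20.1 CPM to 4.59, 3.16 and 6.47 CPM (log2 fold change -2.07, adjusted p = 0.000525). Of their transcript words 38.5% and 25.5% were shared with other genes, so these counts are uncertain. Pkmyt1, a kinase that restrains entry into mitosis, fell from 8.03, 7.63 and 7.47 CPM to 2.77, 2.20 and 2.84 CPM (log2 fold change -1.57, adjusted p = 0.000159). Ppil1, a spliceosomal isomerase, fell from 16.3, 18.6 and 19.4 CPM to 10.7, 11.4 and 10.7 CPM (log2 fold change -0.73, adjusted p = 0.00234). Of the 61 called genes with a position, 12 shared more than 20% of their words with other genes, led by Tmem181b-ps at 95.8% and Gm1821, a ubiquitin B pseudogene, at 84.7%. Besides Rps3a and Rps2 the others were A930015D03Rik (45.4%), Kpna2 (44.8%), Tagap (36.9%), Fpr2 (34.5%), Gm8801 (32.8%), Dnahc7b (30%), Klrb1b (27.2%) and Vmn1r90 (21.5%). Their counts are uncertain in the same way.

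Abundance differed widely among the calls. Of the 64 genes, 12 had a mean under 1 CPM in both groups, and 32 reached a mean of 10 CPM in at least 1 group. AA465934 was at 0.338, 0.403 and 0.119 CPM in the controls and 7.54, 4.43 and 4.33 CPM in NFKO, and Prss41, a serine protease, at 0.104, 0.0604 and 0.119 CPM in the controls and 1.87, 1.44 and 1.91 CPM in NFKO. Gm5148 went the other way, from 3.15, 3.46 and 3.55 CPM to 0.153, 0.0193 and 0.186 CPM. Kpna2, a nuclear import receptor, fell from 1.14, 0.866 and 0.952 CPM to 0.191, 0.0963 and 0.149 CPM, Gdf9, an oocyte growth factor, from 1.46, 1.49 and 1.38 CPM to 0.344, 0.135 and 0.242 CPM, and Guca1b, a photoreceptor calcium sensor, from 0.832, 0.664 and 0.548 CPM to 0.0574, 0 and 0.0186 CPM. A930015D03Rik rose from 0.650, 0.624 and 0.381 CPM to 3.60, 3.27 and 3.16 CPM. Prss33, Gm8801 and Gm8909 were at 0.052 CPM or less in every control library, under the level of 3 counts, and reached means of 0.354, 0.5996 and 0.605 CPM in NFKO. Gm1821 was at 0.910, 0.523 and 0.619 CPM in the controls and 53.0, 49.5 and 55.0 CPM in NFKO, but most of its sequence words are also found in Ubb. Among the calls with smaller changes, Ublcp1, a phosphatase of the proteasome, fell from 37.7, 38.0 and 44.2 CPM to 19.5, 16.5 and 20.9 CPM, Tmem41b, a lipid scramblase, from 31.6, 26.2 and 28.8 CPM to 15.7, 19.1 and 13.6 CPM, and Cyb561, an electron carrier of secretory vesicles, from 47.2, 50.2 and 57.2 CPM to 30.1, 29.9 and 38.4 CPM. Tjap1, a tight junction protein, rose from 38.0, 36.9 and 31.1 CPM to 62.3, 61.8 and 79.9 CPM.

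The position of the calls was then read. On chromosome 17, 22 of 820 tested genes were called (2.68%), and the span from the first to the last of them was 41.0 Mb, from the start of Tmem181b-ps to the end of Guca1b (build GRCm39, chr17:6708801-47703910), which holds 554 tested genes. The ends of this stretch were set by the calls themselves, so the shares in it are a description: 3.97% of its genes were called and 24.2% did not overlap between the groups. Outside this stretch 42 of 17003 genes were called (0.247%) and 13.6% did not overlap. Within the stretch 12 calls were higher and 10 lower, so that its genes moved in either direction. In order of position these were Tmem181b-ps, Tagap, Fpr2, Pkmyt1, Prss33, Prss41, D330041H03Rik, Rnps1, 9930021D14Rik, Rps2 and Spsb3. After them came Ppil1, Glo1, Gm8801, A930015D03Rik, H2-T24, Mut, Cyp39a1, Polh, Tjap1, Dlk2 and Guca1b. Many of these are given above by product, and that grouping does not separate product from position. Chromosomes 11 and 3 followed, with 11 (0.798%) and 10 (1.18%) calls, and edgeR called none of the 604 tested genes on chromosome X or the 5 on Y, where 34 and 0 had an unadjusted p under 0.05 and DESeq2 called 3 (Alas2, Cybb and Xist) and 0. Of the 61 called genes with a position, 22 (36.1%) had another called gene starting within 1 Mb and 44 (72.1%) within 5 Mb, against 7.24% and 17.8% of the other placed genes. None of the 182 tested genes within 20 Mb of Nfasc on chromosome 1 was called by edgeR, 11 had an unadjusted p under 0.05, and DESeq2 called 2 (Ctse and Ptprc). Of these 182 genes 12.1% did not overlap, near the 13.9% of all genes.

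**Figure D2:**
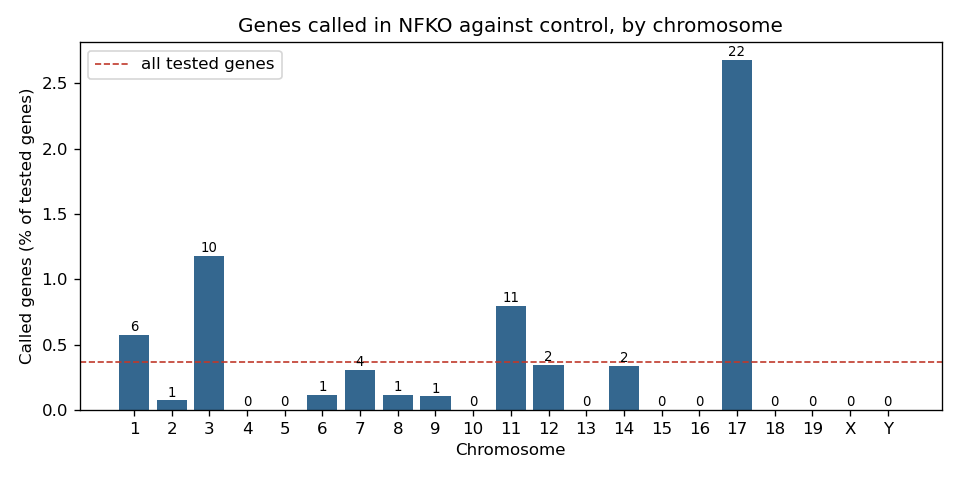
Genes called in NFKO against control as a percentage of the tested genes on each chromosome, with the number called above each bar and the share over all tested genes as a dashed line. Chromosome 17 stands at 2.68%, above all others.

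**Figure D3:**
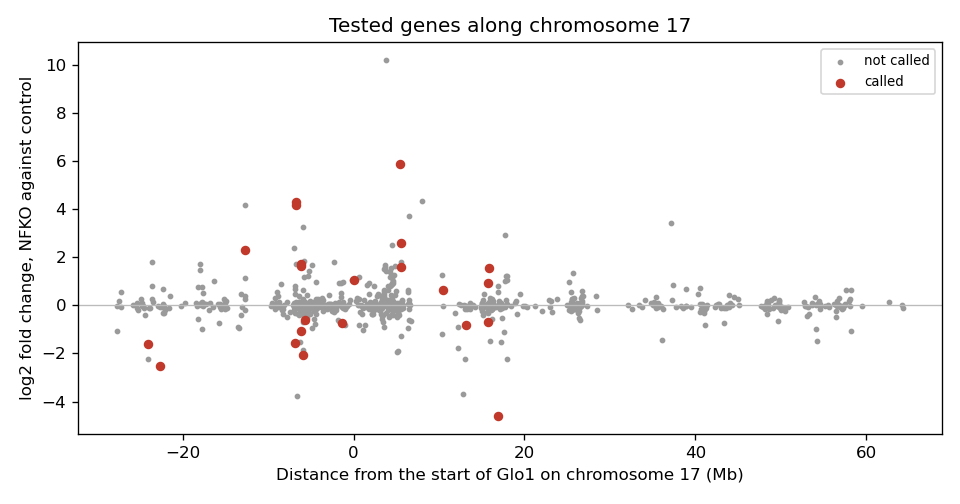
Log2 fold change in NFKO against control of each tested gene on chromosome 17, by distance in Mb from the start of Glo1, with the 22 called genes in red. Called genes lie on either side of 0, and they span 41.0 Mb from the first to the last.

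The same genes were then read in DKO (Pcp2-Cre with NfascFx/Fx and AnkGFx/Fx, 3 libraries) against AnkGKO (Pcp2-Cre with AnkGFx/Fx, 2 libraries), where Nfasc is also targeted and which shares no library with the comparison above. DKO replicate 2 stood apart in sensory ganglion genes, which summed to 151 CPM there and to at most 2.75 CPM in the other 10 libraries. In that contrast 30 of 17557 genes were called (0.171%). Of the 64 genes, 13 went in the NFKO direction and 51 in the opposite one, and 22 had an absolute log2 difference under 0.2. None was called by edgeR in the NFKO direction, and 7 were called in the opposite direction: Apoa2, Dlk2, H2-Bl, Serpina3f and Serpina3n, which were lower in DKO, and Rps3a and Gm5148, which were higher. Without DKO replicate 2 the numbers were 17 and 47, and the calls were again 0 in the NFKO direction and these 7 in the opposite one. Serpina3n was at 270.4 and 184 CPM in AnkGKO and 103, 89.7 and 84.2 CPM in DKO (log2 difference -1.30, adjusted p = 0.00512). Rps3a was at 0.371 and 0.413 CPM in AnkGKO and 24.2, 22.8 and 26.4 CPM in DKO (log2 difference 5.96, adjusted p = 0.00101). For both genes the AnkGKO libraries lay nearer to NFKO and the DKO libraries nearer to control. For Tpm3, Glo1 and Lyrm7 the log2 difference between DKO and AnkGKO was 0.02, 0.06 and 0.01, with adjusted p = 0.98, 0.842 and 0.995, and the levels of AnkGKO and DKO lay near those of control. The difference between the contrasts passed an adjusted p of 0.05 for 95 genes (0.541%), 46 of them among the 64, which had been chosen on a part of that difference.

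**Figure D4:**
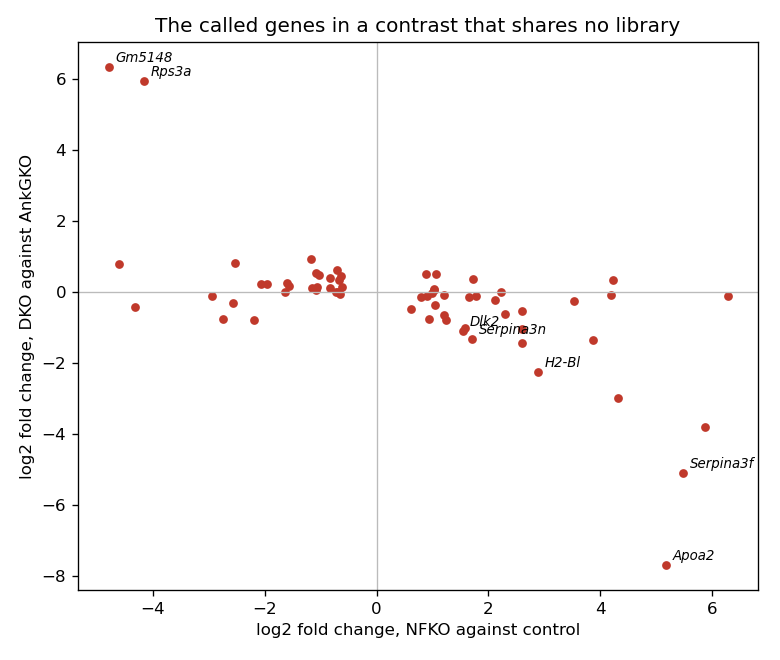
Log2 fold change of the 64 called genes in NFKO against control (horizontal) and in DKO against AnkGKO (vertical), 1 point per gene. The 7 labelled genes are those called in the second contrast, and each lies on the opposite side of 0 from its NFKO value.

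Gene lists were described by counts and medians, beside a median log2 fold change of -0.00495 over all tested genes. Of 41 tested interferon-response genes edgeR called 1, Bst2, DESeq2 called 4 (Bst2, Ifi27l2a, Ifit3 and Ifitm3) and edgeR with the block called 7, while 38 were higher in sign and 18 had all 3 NFKO libraries above the controls, against 7.42% of all genes. The list's median was 0.49, from 0.27 to 0.58 over the alternatives, the lowest with meningeal fibroblast genes as a covariate, and -0.27 in DKO against AnkGKO. Ifit3 was at 4.71, 5.96 and 3.81 CPM in the controls and 9.45, 8.99 and 7.82 CPM in NFKO (log2 fold change 0.86, adjusted p = 0.11), and Ifitm3, a membrane protein that blocks viral entry and was chosen after its values were seen, at 10.1, 12.8 and 11.1 CPM in the controls and 16.6, 21.6 and 16.4 CPM in NFKO (log2 fold change 0.68, adjusted p = 0.114). With the block on replicate number both passed, at adjusted p = 0.0129 and 0.00736. Among 21 antigen presentation genes edgeR called 1, H2-Bl, DESeq2 called 3 and the block 2, and the median was 0.28 (0.157 to 0.389 over the alternatives). Of 20 complement genes none was called by edgeR or DESeq2, 4 had an unadjusted p under 0.05 and 4 were called with the block, with a median of 0.37, which was -0.09 with meningeal fibroblast genes as a covariate. C2 and C1ra, early components, had log2 fold changes of 1.18 and 1.23 (adjusted p = 0.492 and 0.514; 0.0263 and 0.0393 with the block). Of 7 tested genes of the Serpina3 cluster edgeR called 2, DESeq2 4 and the block 3, with a median of 1.57.

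Lists of microglia and astrocytes held few calls. None of 23 homeostatic microglia genes was called by edgeR, with a median of 0.13 (0.081 to 0.323 over the alternatives). At an unadjusted p under 0.05 there were 6 higher and 1 lower, and DESeq2 called 1, Fcrls. Fcrls, an Fc receptor-like microglial marker, was at 17.6, 16.97 and 11.1 CPM in the controls and 3.10, 2.75 and 3.62 CPM in NFKO, the reverse of the list's median, and missed the threshold (log2 fold change -2.27, adjusted p = 0.0942; 0.00434 with the block). Ctss, a lysosomal protease, was at 85.9, 116 and 84.7 CPM in the controls and 131, 141 and 136 CPM in NFKO (adjusted p = 0.203). None of 24 activated microglia genes was called by edgeR, with a median of 0.12 (0.0166 to 0.371 over the alternatives) and 7 at an unadjusted p under 0.05, and DESeq2 called 1, Gpnmb. Gpnmb, a glycoprotein of phagocytes, was at 7.02, 8.23 and 6.57 CPM in the controls and 3.33, 5.05 and 2.92 CPM in NFKO (log2 fold change -0.95, adjusted p = 0.0942; 0.0105 with the block), while Lyz2, lysozyme, was at 10.6, 17.3 and 14.7 CPM in the controls and 32.7, 48.7 and 29.8 CPM in NFKO (log2 fold change 1.39, adjusted p = 0.414; 0.00156 with the block). Serpina3n was the sole call of edgeR and DESeq2 among 26 reactive astrocyte genes, and the block called 2. Their median was 0.15 and ranged from -0.281 to 0.335 over the alternatives, turning negative with the fibroblast covariate. Neither tool called any of the 19 homeostatic astrocyte genes, whose median of 0.04 ranged from -0.0854 to 0.155, with 1 at an unadjusted p under 0.05.

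Medians of the neuronal lists were slightly under 0, and those of the initial segment and postsynaptic lists turned positive with the fibroblast covariate. None of 22 genes of the axon initial segment and node was called by edgeR or DESeq2, with a median of -0.05 (-0.137 to 0.072 over the alternatives) and 1 at an unadjusted p under 0.05. Trim46, which organizes microtubules of the initial segment, was at 58.8, 56.4 and 55.8 CPM in the controls and 48.3, 49.7 and 52.0 CPM in NFKO, and did not pass (log2 fold change -0.19, adjusted p = 0.362). Of 28 genes of synaptic vesicles and release Cadps alone was called, 26 were below 0 in sign and the median was -0.10. None of 24 postsynaptic genes was called by edgeR or DESeq2, with a median of -0.07 (-0.114 to 0.0156) and 2 at an unadjusted p under 0.05. Gria1, an AMPA receptor subunit, was at 185, 183 and 168 CPM in the controls and 170.2, 155 and 127 CPM in NFKO (log2 fold change -0.25, adjusted p = 0.562). Among 16 integrated stress response genes, 12 immediate early genes and 12 axonal injury genes neither the main edgeR fit nor DESeq2 called any. The block called 1, Slc7a11 of the stress response list. In these lists 2, 0 and 0 had an unadjusted p under 0.05 and the medians were -0.02, 0.18 and -0.02. Each of these medians also changed sign in some alternatives, with ranges of -0.0903 to 0.0432, -0.0526 to 0.289 and -0.072 to 0.0255, the last turning positive without control replicate 2. Among the immediate early genes Fosl2 and Btg2 had log2 fold changes of 0.24 and 0.23 (adjusted p = 0.875 and 0.88). Of 26 sterol and lipid genes Apoa2 was the sole call, with a median of 0.09.

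For RNA-seq of NFKO against control the study names Clec7a, Fcgr3 and Csf1r as raised and Snap25, Sv2a and Syp as lowered. With the other genes of its qRT-PCR, which it reports across the mutant genotypes, these made 14 genes. None of the 14 was called by edgeR, with or without the block, or by DESeq2. In either direction 3 had an unadjusted p under 0.05, as did 7.69% of all tested genes. Clec7a, a phagocyte lectin, was at 1.51, 2.56 and 1.48 CPM in the controls and 3.08, 2.79 and 2.38 CPM in NFKO, with overlapping libraries and a log2 fold change of 0.57 (adjusted p = 0.629). C3, the central complement component, was at 43.3, 45.2 and 33.8 CPM in the controls and 63.6, 48.1 and 48.5 CPM in NFKO (log2 fold change 0.39, adjusted p = 0.709). Apoe, Clu and Stat3, genes of glial lipoproteins and signalling, had log2 fold changes between -0.01 and 0.03, and the synaptic vesicle genes Sv2a and Syp of -0.02 and -0.06. Car8, a Purkinje cell gene, ranged from 8.55 to 157 CPM in the controls and from 8.03 to 197 CPM in NFKO.

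**Figure D5:**
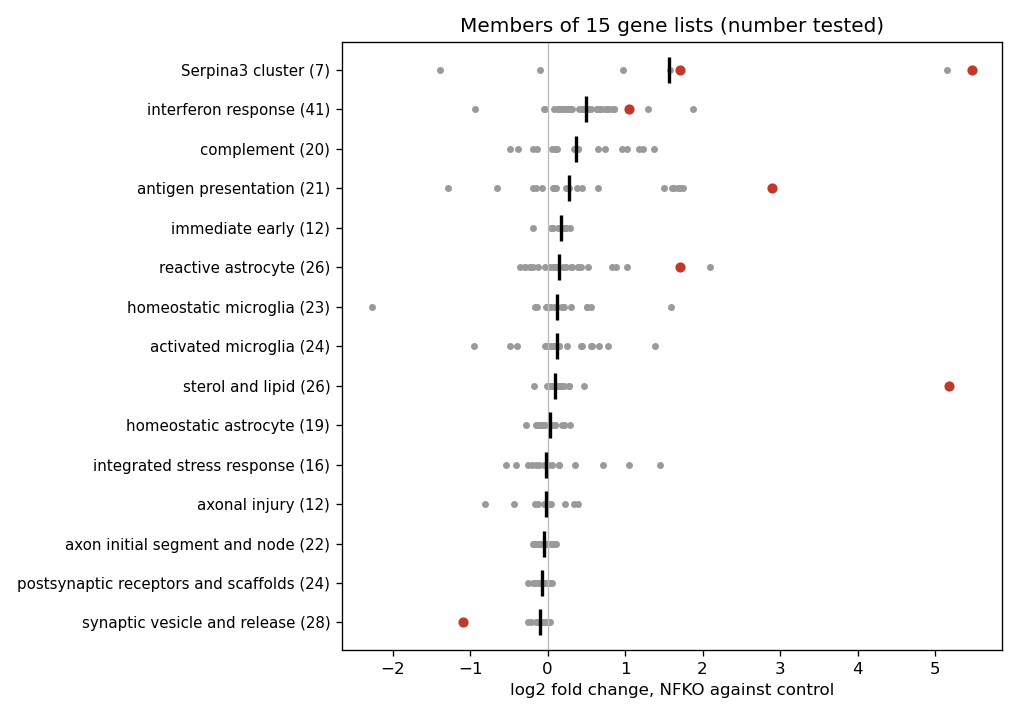
Log2 fold change in NFKO against control of each tested member of 15 gene lists (1 point per gene, called genes in red), with the list's median as a black bar and the number tested in parentheses. The interferon list, at a median of 0.49, has 38 of 41 genes above 0.

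Markers of other tissues were summed in each library. Summed CPM of 15 meningeal fibroblast genes was 217, 648 and 414 in control and 715, 1970 and 834 in NFKO, with no overlap. Schwann cell genes summed to 119, 173 and 253 CPM in the controls and 389, 393 and 419 CPM in NFKO, also without overlap, while skeletal muscle genes summed to 46.5, 83.7 and 46.3 CPM in the controls and 104, 540 and 8.86 CPM in NFKO and did overlap. Choroid plexus genes, at 30.8, 27.6 and 27.9 CPM in the controls and 29.8, 40.8 and 27.4 CPM in NFKO, overlapped too. Alas2, the only tested gene of the erythrocyte list, was at 16.5, 12.5 and 12.2 CPM in the controls and 34, 30.7 and 31 CPM in NFKO. Neutrophil and lymphocyte genes summed to 19.1, 15.9 and 5.83 CPM in the controls and 16.6, 32.8 and 31.5 CPM in NFKO, with overlap. All 13 of them were higher in sign, with a median of 0.93. Of 188 tested genes in the 16 marker lists edgeR called none, 11 had an unadjusted p under 0.05, DESeq2 called 1 (Alas2, of erythroid cells), and 12 were called with the block, 6 of them of the fibroblast list. With the fibroblast sum as a covariate 38 genes were called, 34 of them among the 64. The part of these tissues in the gene lists above was not tested beyond this covariate.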

How the data were processed

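RNA-seq gene counts for 11 libraries were used, and the 6 control and NFKO libraries were compared. The deposited table holds raw counts per gene symbol, which the authors made from reads that, per the labels, were single-end and 100 bases long; the submitters' processing notes name FastQC 0.12.1, Trimmomatic 0.39, STAR 2.7.11a and build GRCm39. The study's methods state paired reads instead, and its counting is described as STAR's, although the 5 summary rows are of the htseq-count kind; these rows were left out, among them reads with no feature. Strand use in counting is not given in the sources used here. A second deposited table of normalized values was not used.

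Counts were scaled by TMM and fitted by edgeR 4.0.16 (R 4.3.3) with the quasi-likelihood test and robust estimation, over 4 genotypes, with Benjamini-Hochberg adjustment over 17557 genes. DESeq2 1.42.0 was an alternative. Groups came from the genotype labels, and labels call the replicates biological. Named were Nfasc, Ank3, Pcp2, the called genes, called list members or up to 3 with the smallest p-values, and genes the study names. The members and lists were chosen with earlier results of these data known. Libraries of the same number deviated together (r = 0.363, 0.306 and 0.175), so the block on replicate number was taken as paired. Other pairs were at -0.28 to -0.0641, but deviations from a group mean cancel within the group, which by itself lowers those values. The labels do not say what a number shares. Positions came from GENCODE on GRCm39, with 15219 symbols matched directly, 1752 as synonyms and 586 unmatched. On simulated counts of 17459 genes for NFKO against control, edgeR called 98.5% of genes changed 4-fold, 82.1% of those changed 2-fold and 32.8% of those changed 1.5-fold, and 8 unchanged genes. The changed genes were drawn only from those above a minimum mean count. Libraries were simulated independently, without a structure of sex, tissue or replicate number. These rates thus do not cover genes of low count or differences of that kind.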

Additional observations from a re-analysis of the deposited data

Results flagged for a closer look

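For 48 of the named genes the log2 change with Nfasc targeting differed between the 2 backgrounds, that is, NFKO against control minus DKO against AnkGKO, with an adjusted p under 0.05 by edgeR's quasi-likelihood test over 17557 genes, where 95 genes (0.541%) passed. Of these, 46 were among the 64 called genes, which had been chosen on NFKO against control, a part of this difference, so their number is no independent result. A positive difference means that the signed log2 change was higher in NFKO against control, and does not say which contrast changed more in size.

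The largest positive differences on the log2 scale were Apoa2 at 12.9, Serpina3m at 11, Serpina3f at 10.6, Gm8801 at 9.64, Prss33 at 7.28, Gm1821 at 6.37, Gm8909 at 5.22, H2-Bl at 5.12, Prss41 at 4.27 and Klrb1b at 4.03. Some of these rest on libraries at or near 0 counts, where the fitted size depends on the prior count and is no bound. Further positive differences were AA465934 at 3.88, A930015D03Rik at 3.63, Cyb5r2 at 3.11, Serpina3n at 3.01, Dlk2 at 2.64, H2-T24 at 2.59, Lyrm7 at 2.21 and Ddit4l at 2.02. Smaller ones were Hddc3 at 1.88, Dnahc7b at 1.85, Tjap1 at 1.7, Ifit3 at 1.61, Thy1 at 1.27, Mut at 1.08, Adora2b at 1.01, Glo1 at 0.969 and Tmem144 at 0.915. Negative differences were Gm5148 at -11.1, Rps3a at -10.1, Guca1b at -5.4, Tagap at -3.36, Rps2 at -2.3, Wdfy1 at -2.2 and Cetn4 at -2.11. Smaller negative ones were Pkmyt1 at -1.73, Tpm3 at -1.66, Ublcp1 at -1.63, Tifa at -1.51, Scnm1 at -1.33, Alpk1 at -1.28, Cyp39a1 at -1.24, Rnps1 at -1.23, Cadps at -1.16, Them4 at -1.1, Polh at -1.04, Tmem41b at -0.956, Spsb3 at -0.762 and Ppil1 at -0.745.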

How the results depend on the processing

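All 64 called genes kept their direction in all 18 alternatives, but the number called moved. DESeq2 called 159 (93 higher, 66 lower), the replicate block within the 6 libraries 248 (186 and 62), Xist as a covariate 31 (16 and 15), the fit without both replicate 1 libraries 29 (13 and 16), and the fits added after the data were seen 19 (12 and 7) for libraries with Xist under 50 CPM, where 1 control remains, 38 (21 and 17) with the fibroblast covariate and 55 with the replicate block over all 11 libraries. Leaving out 1 control or NFKO library gave 40 to 55 calls, 19 to 29 higher and 21 to 26 lower, fewest without NFKO replicate 1. The cause of these shifts was not tested. Filters and size factors gave 66 to 68. Reversals, 29 values in 10 genes, touched no called gene. Nfasc was at 0.0611, Btg2 at -0.0102, Sv2a at 0.043, Syp at 0.00477 and Clu at 0.00189 with the fibroblast covariate. With Xist as a covariate Fosl2 was at -0.0044, Apoe at 0.0409 and Clu at 0.056. With Xist under 50 CPM Sv2a was at 0.0102, Apoe at 0.0517 and Clu at 0.0502, and without both replicate 1 libraries Apoe was at 0.0271 and Clu at 0.0115. Clu was at 0.00155 in the 6 libraries, 0.00178 with their replicate block and 0.000581 with the block over 11. Leaving out 1 library, Pcp2 ranged from -3.06 to 3.64, Car8 from -1.96 to 2.5, Sv2a from -0.0625 to 0.0155, Apoe from -0.043 to 0.0327, Clu from -0.0258 to 0.0258 and Stat3 from -0.00645 to 0.0576. Of 46 further marker genes, not named singly, 18 reversed at least once (47 of 777 values). With 3 libraries a group and sex and tissue makeup differing between libraries, changes of low-count genes are imprecise.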
